A study of Mus musculus with 18 samples.

Results

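The difference between *Slc7a7* knockout and wild type macrophages that was shared by the culture media was examined in 18 RNA-Seq libraries from 6 mice. Each mouse gave 1 library in control medium, 1 under Ac-LDL and 1 under Ox-LDL, and its value for a gene was the mean log2 CPM (counts scaled to the total of each library) of these 3 libraries. Mice were assigned by the identifier in the sample labels, and 3 knockout mice were set against 3 wild type mice. All 18 of the 18 libraries of the series were used, and 12290 genes were tested. The mouse was the unit of comparison, so that n = 3 per genotype throughout.

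The knockout mice (*Slc7a7*-/-) were myeloid-specific, with Cre expressed from the LysM (*Lyz2*) promoter, and the controls were labelled *Slc7a7*+/+. The mice were on a C57Bl/6J background and were 12 weeks old when bone marrow was taken. Whether the controls carried Cre or floxed alleles is not given in the sources used here. BM-derived macrophages were grown for 7 days in medium that supports macrophage growth, and received Ac-LDL at 50 µg/mL, Ox-LDL at 100 µg/mL or a mock treatment for 24 h. Ac-LDL and Ox-LDL are modified forms of LDL that enter macrophages by way of scavenger receptors. LysM-Cre acts as myeloid cells mature, so a culture can hold cells that still carry an intact gene.

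*Slc7a7* encodes y+LAT1, the light chain of a system y+L transporter that works as a dimer with the heavy chain 4F2hc, the product of *Slc3a2*. The dimer exports cationic amino acids such as arginine and lysine in exchange for sodium and neutral amino acids such as glutamine and leucine. In humans, loss of the gene causes lysinuric protein intolerance, a disorder in which macrophages are among the affected cells.

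Total counts per library were between 1043492 and 1768816, with a median of 1466145, so that 3 counts corresponded to between 1.66 and 2.84 CPM. The median standard error of the genotype difference was 0.26 on the log2 scale for genes under 5 CPM and 0.11 for genes over 80 CPM. Wild type mouse 1 stood apart from the other 5 mice. It had the fewest counts (3242518 over its 3 libraries, against at least 4163783 in each other mouse), and it lay at -23.5 on the first principal component, on which the other mice lay between -3.19 and 13.2. The distance between wild type mice 1 and 2 (root mean square log2 difference 0.46 over 6749 genes) was larger than any distance between a wild type and a knockout mouse (0.23 to 0.40). *Xist*, which is transcribed from the inactive X chromosome, was abundant in wild type mouse 2 and knockout mouse 1 and at no more than 2 counts in any library of the other 4 mice. *Ddx3y* and *Uty*, genes of the Y chromosome, had 0 counts in wild type mouse 2 and knockout mouse 1. Each of the other 4 mice had at least 170 counts of either gene over its 3 libraries. By these genes, each genotype mixed female and male mice. The wild type libraries were numbered before all knockout libraries, so library order and genotype cannot be told apart. Labels name each mouse but do not give the litter.

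Of macrophage identity genes, 18 of 18 were tested, and their summed level was between 5917 and 7966 CPM in the 6 mice. Marker genes of dendritic, lymphoid, erythroid and mast cells summed to at most 3.92 CPM in each mouse. Stromal markers summed to 12.9, 4.40 and 17.7 CPM in the wild type mice and 2.97, 2.16 and 5.68 CPM in the knockout mice, and *Acta2*, the smooth muscle actin gene of that list, had a log2 difference of -1.12 ± 0.30 (SE, adjusted p = 0.952). The stromal sums of the genotypes overlapped, and their part in the results was not tested.

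*Slc7a7* fell in the knockout macrophages, and it was the only gene of the 12290 that passed the threshold (adjusted p under 0.05 in limma, 0.00814% of genes tested). The mean over the media was 22.7, 20.7 and 24.7 CPM in the wild type mice and 7.56, 5.83 and 6.34 CPM in the knockout mice. The lowest wild type mouse was well above the highest knockout mouse. On the log2 scale, the levels were 4.53 ± 0.15 in wild type and 2.86 ± 0.17 in knockout (SD, n = 3 mice), a difference of -1.67 ± 0.18 (SE, 95% interval -2.07 to -1.27, limma, adjusted p = 0.0205). A two-sided exact permutation test of the 6 mouse values gave p = 0.10, which is the smallest that 3 against 3 mice allow.

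The *Slc7a7* reads in the knockout did not reach 0. Between 27 and 32 counts per knockout mouse remained, summed over the 3 libraries, against 74 to 109 per wild type mouse. The difference was -1.06 in control medium, -2.57 under Ac-LDL and -1.38 under Ox-LDL, and the genotypes did not overlap in any medium. In wild type libraries *Slc7a7* was at 11.1 to 21.1 CPM in control medium and at 23.6 to 29.3 CPM with either LDL. In knockout libraries it was at 4.33 to 10.2 CPM in control medium, at 2.22 to 5.21 CPM under Ac-LDL and at 8.66 to 10.9 CPM under Ox-LDL. The variation of the genotype difference between media was not past the threshold (edgeR quasi-likelihood test, adjusted p = 1). *Slc7a7* lies on chromosome 14 (54369442 to 54417780, minus strand, GRCm38) and overlaps *Oxa1l*, a mitochondrial inner membrane insertase gene on the opposite strand, whose log2 difference was 0.04 ± 0.13. The fall of *Slc7a7* was past the threshold without wild type mouse 1 (-1.70, adjusted p = 0.0198) and without wild type mouse 2 (-1.73, adjusted p = 0.0233), but not without any 1 of the other 4 mice (differences -1.74 to -1.57, adjusted p 0.105 to 0.238). It was also not past it with the Ac-LDL libraries left out (-1.22, adjusted p = 0.878), with the Ox-LDL libraries left out (-1.82, adjusted p = 0.0847), without the variance trend (-1.67, adjusted p = 0.0502) or with a term for the mice with *Xist* (-1.67, adjusted p = 0.0817).

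**Figure D1:**
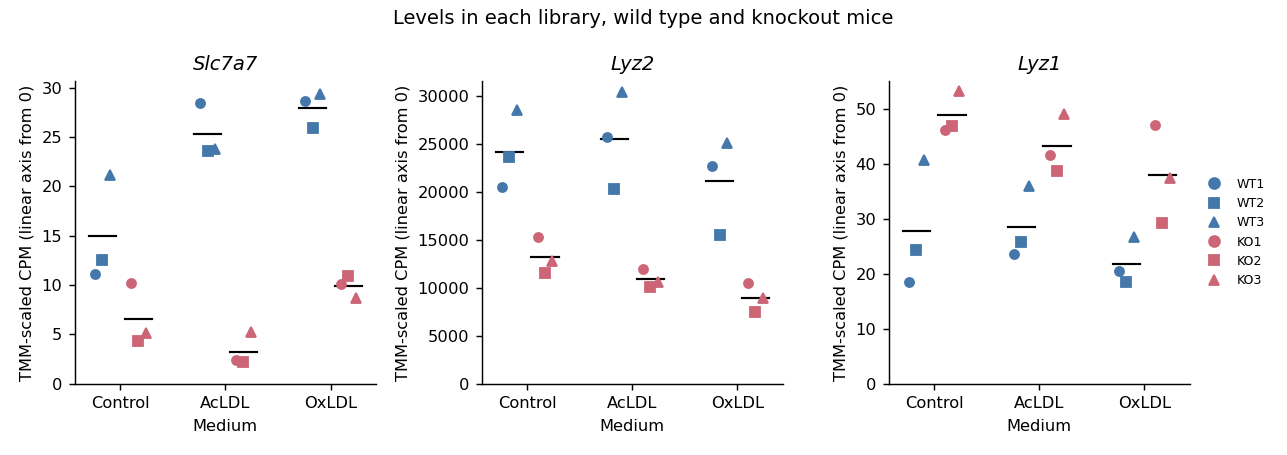
TMM-scaled CPM of *Slc7a7*, *Lyz2* and *Lyz1* in each of the 18 libraries (vertical axes linear from 0), by medium, with wild type mice in blue, knockout mice in red, a marker shape for each mouse number and a line at the mean of 3 mice. In each medium, all knockout libraries lie below all wild type libraries for *Slc7a7* and *Lyz2* and above them for *Lyz1*.

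The 2 lysozyme genes of the mouse differed in opposite directions. *Lyz2* encodes the lysozyme of macrophages and is the locus that carries Cre in LysM-Cre mice, whereas *Lyz1* is its neighbour, best known from Paneth cells of the gut. *Lyz2* was at 22964, 19815 and 28034 CPM in the wild type mice and at 12568, 9718 and 10775 CPM in the knockout mice. No knockout library reached a wild type library in the same medium. The log2 difference was -1.10 ± 0.33 (SE), which did not pass in limma on 6 mice (adjusted p = 0.952). The SD over mice was 0.26 in wild type and 0.19 in knockout, and limma draws the SE towards that of genes at a similar level. On counts summed per mouse, *Lyz2* was lower past the threshold with DESeq2 (adjusted p = 4.3e-09) but not with edgeR. With all 18 libraries fitted and the mouse as a block, *Lyz2* was lower past the threshold (SE 0.17, limma adjusted p = 0.0062), as 1 of 2 genes called (0.0163% of genes tested), the other being *Slc7a7*. The difference was -0.87, -1.21 and -1.22 in control medium, Ac-LDL and Ox-LDL.

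*Lyz1* was at 20.9, 22.9 and 34.5 CPM in the wild type mice and at 45.0, 38.4 and 46.7 CPM in the knockout mice, again with no overlap in any medium. Its log2 difference was 0.73 ± 0.18 (SE, adjusted p = 0.952), and with the mouse as a block the adjusted p was 0.151. When the counts of both genes were summed, the difference was -1.10. The part of the Cre allele in these differences was not tested.

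*Lyz1* (chromosome 10, 117287797 to 117292868) and *Lyz2* (117277331 to 117282321, both minus strand, GRCm38) are alike enough that reads can be shared between them. Over 444 coding bases without the stop codon they differ at 22, and 34.2% of the 31-base words of the *Lyz1* transcript also occur in that of *Lyz2*. The 60 coding bases shown (bases 61 to 120, counted from the start codon) hold as many differences as any such stretch that starts at a codon. Differing bases are in capitals, since only reads over such bases can tell the copies apart. The *Lyz1* stretch lies at chr10:117292719-117292778 and the *Lyz2* stretch at chr10:117282123-117282182.
Lyz1: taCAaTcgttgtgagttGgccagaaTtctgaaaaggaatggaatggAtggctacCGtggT
Lyz2: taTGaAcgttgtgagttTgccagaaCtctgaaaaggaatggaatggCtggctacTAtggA

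Genes close to both modified loci were counted in the same fit. Within 5 Mb of *Slc7a7*, 102 other genes were tested, of which 58 were higher and 44 lower in the knockout. Their median difference was 0.04, none passed the threshold, and 5 had an unadjusted p under 0.05, where 539 of all 12290 genes had one. Within 5 Mb of *Lyz2*, 37 other genes were tested, with 21 higher and 16 lower, a median of 0.01 and none past the threshold. The 3 with an unadjusted p under 0.05 were *Lyz1*, *Cpsf6*, a pre-mRNA cleavage factor gene (0.37 ± 0.11), and *Tmbim4*, of a family of membrane proteins linked to calcium handling (-0.42 ± 0.15).

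Beyond *Slc7a7*, the smallest adjusted p was 0.784. At an unadjusted p under 0.05, 297 genes were higher (2.42%) and 242 were lower (1.97%) in the knockout, which is 539 of 12290. The values of the 6 mice did not overlap, with the same direction in all 3 media, for 491 genes that were higher (4.0%) and 426 that were lower (3.47%). The median difference of all genes tested was 0.01. Without wild type mouse 1, 3 genes passed the threshold, all lower in the knockout: *Slc7a7*, the histone gene *Hist1h2ah* and the predicted gene *Gm10800*. Without wild type mouse 2, 4 genes passed. *Slc7a7* and the predicted gene *Gm16867* were lower. *Cd72*, a C-type lectin best known from B cells, and *Fat3*, an atypical cadherin, were higher. Summed over 3 libraries, *Gm16867* had 51.4, 0 and 71.4 counts in wild type and 2.4, 2.6 and 2.2 counts in knockout mice. Wild type mouse 2 was thus below all knockout mice for that gene.

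**Figure D2:**
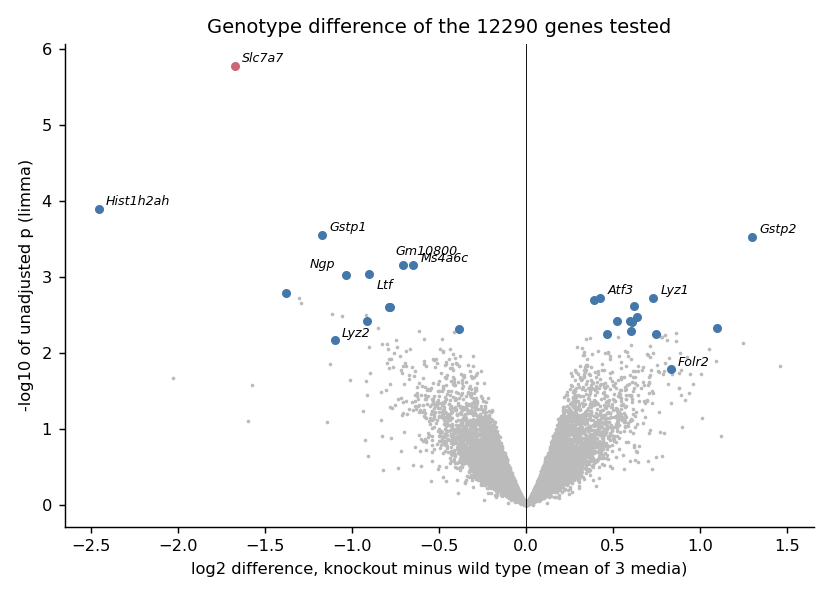
Log2 difference between knockout and wild type (horizontal axis, mean of 3 media, 6 mice) against -log10 of the unadjusted limma p (vertical axis) for the 12290 genes tested, with *Slc7a7* in red, the 23 other genes listed by p without overlap, *Lyz2*, *Folr2* and *Gstp2* in blue, and the rest in grey. *Slc7a7* at -1.67 lies apart from all other genes on the vertical axis, and *Hist1h2ah* has a larger difference with a larger p.

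In each single medium as well as on average, the genotypes were free of overlap in 1 direction for 11 genes that were higher (0.0895%) and 3 that were lower (0.0244%) in the knockout. These genes were picked after their values were seen. The lower ones were *Slc7a7*, *Lyz2* and *Gpnmb*, a lysosomal glycoprotein of lipid-laden macrophages, at 12.35, 12.27 and 12.46 log2 CPM in wild type and 12.04, 11.98 and 11.97 log2 CPM in knockout mice (difference -0.36 ± 0.18, adjusted p = 0.952). The higher ones, apart from *Lyz1*, were *Cd300ld*, *Atf3*, *Elk4*, *Col18a1*, *Hnrnpr*, *Rin2*, *Tiam1*, *Ikbkb*, *Shtn1* and *Fryl*, with differences between 0.18 and 0.52. Among them *Elk4* encodes an ETS transcription factor of the serum response (0.33), *Ikbkb* a kinase that activates NF-kB (0.19), *Tiam1* an exchange factor for Rac (0.24) and *Col18a1* a basement membrane collagen (0.29).

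The 12 genes with the smallest p among those higher without overlap, at a mean of at least 5 CPM, had differences from 0.39 to 1.10, and none passed the threshold. *Atf3*, a stress-induced transcription factor that restrains inflammatory genes, was at 109, 126 and 120 CPM in the wild type mice and at 152, 174 and 152 CPM in the knockout mice. Each knockout mouse was above each wild type mouse, and the log2 difference was 0.43 ± 0.11 (adjusted p = 0.952). It was 0.49, 0.34 and 0.45 in control medium, Ac-LDL and Ox-LDL.

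*Cd300ld*, an activating receptor of myeloid cells, was at 6.28, 6.90 and 6.71 log2 CPM in wild type and at 7.16, 7.16 and 7.12 log2 CPM in knockout mice (0.52 ± 0.14). The knockout mice were close to each other, and wild type mouse 1 was the lowest. *Gadd45g*, a stress sensor of the growth arrest family, was at 9.51, 7.85 and 8.21 CPM in wild type and 13.4, 13.1 and 13.3 CPM in knockout mice (0.64 ± 0.17 on the log2 scale). *Cep250*, which encodes a protein that links the centrosomes, had a difference of 0.39 ± 0.10, and *Sipa1l1*, a regulator of Rap GTPases, of 0.47 ± 0.14. The others were *Lyz1*, *Mamld1* (0.60), *Ccdc171* (0.60) and 4 predicted or little described genes, *2410002F23Rik* (0.62), *A630089N07Rik* (0.61), *Gm14434* (1.10) and *Gm21992* (0.75). *Gm21992* overlaps *Rbm14* and *Rbm4* on the same strand, so its reads cannot be told apart from theirs.

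**Figure D3:**
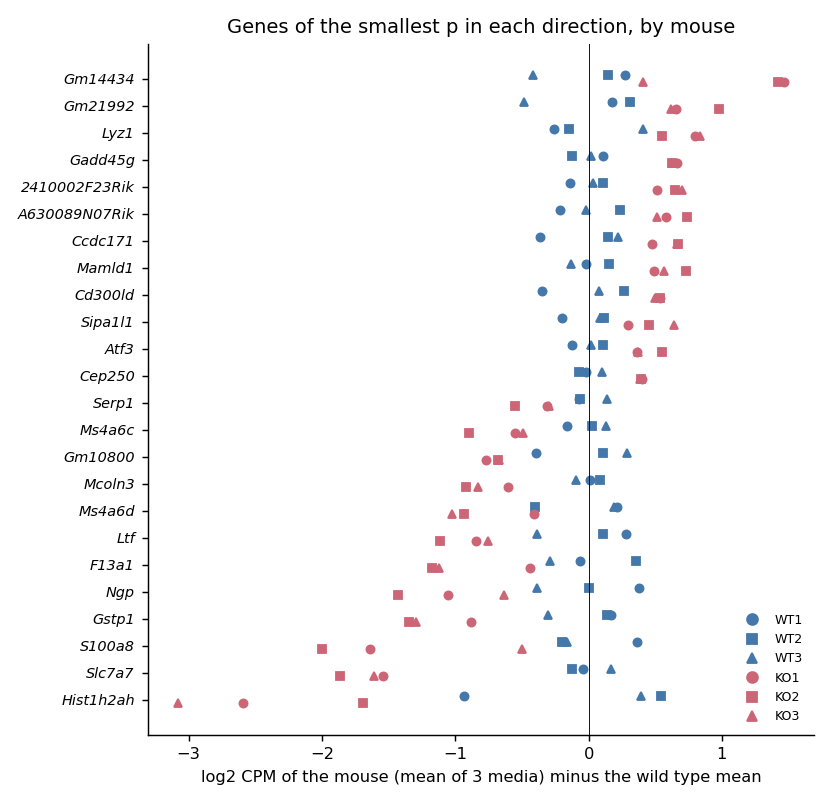
Log2 CPM of each mouse (mean of 3 media) minus the wild type mean for the 12 genes with the smallest p in each direction, with wild type mice in blue and knockout mice in red. The mice of the genotypes do not overlap for any of the 24 genes, which was a condition of their choice, and *Slc7a7* passed the threshold.

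Among the genes lower in the knockout, 11 filled the same list below *Slc7a7*, with differences from -2.46 to -0.39 and none past the threshold. Ms4a proteins, which span the membrane several times and are typical of monocytes and macrophages, were among them. *Ms4a6c* was at 5.81, 5.99 and 6.10 log2 CPM in wild type and 5.41, 5.07 and 5.47 log2 CPM in knockout mice, a difference of -0.65 ± 0.14 (adjusted p = 0.952). *Ms4a6d* was at 5.90, 5.29 and 5.88 in wild type and at 5.28, 4.75 and 4.67 in knockout mice (-0.79 ± 0.20). Wild type mouse 2 and knockout mouse 1 were within 0.01 of each other for *Ms4a6d*. *Ms4a7*, named after its value was seen, had a difference of -0.49 (adjusted p = 0.952).

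*F13a1*, the clotting factor chain made by monocytes and macrophages, was at 3.87, 4.29 and 3.64 log2 CPM in wild type and at 3.49, 2.76 and 2.81 log2 CPM in knockout mice (-0.91 ± 0.25). *Serp1*, a protein of the endoplasmic reticulum that stabilizes new membrane proteins, had a difference of -0.39 ± 0.11, and *Mcoln3*, an endolysosomal cation channel, of -0.78 ± 0.20. *Gm10800*, a predicted gene, had -0.71 ± 0.15, with -0.25 in control medium, -1.25 under Ac-LDL and -0.63 under Ox-LDL. For *F13a1* the difference was -0.77 in control medium, -0.39 under Ac-LDL and -1.58 under Ox-LDL.

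*Hist1h2ah* and *Gstp1* had the smallest p after *Slc7a7*, but both belong to families of near-identical genes, and their counts are uncertain. *Hist1h2ah*, a histone H2A gene, had 26.9, 81.7 and 77.0 counts in the wild type mice and 3.80, 37.7 and 0 counts in the knockout mice, summed over 3 libraries. In knockout mouse 2 all 37.7 counts were in the control library. The difference of -2.46 ± 0.43 (adjusted p = 0.784) was -0.30 in control medium, -4.02 under Ac-LDL and -3.05 under Ox-LDL.

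*Gstp1*, a glutathione S-transferase that conjugates electrophiles, had 40, 51 and 37 counts in the wild type mice and 29.3, 22 and 25.2 counts in the knockout mice. All 3 knockout libraries in control medium were at 0 counts of *Gstp1*, while its neighbour *Gstp2* had 17, 12 and 13 counts there and 0 in all 9 wild type libraries. Summed over both genes the log2 levels were 3.68, 3.65 and 3.21 in wild type and 3.73, 3.06 and 3.31 in knockout mice, with a difference of -0.15 ± 0.23 (adjusted p = 0.969). The genes lie side by side on chromosome 19 and differ at 12 of 630 coding bases, and 67.5% of the 31-base words of *Gstp1* occur in *Gstp2*. The first 60 coding bases are shown because no stretch of that length that starts at a codon holds more differences (in capitals). They are interrupted by an intron in both genes (minus strand, GRCm38, chr19:4037374-4037863 for *Gstp1* and chr19:4041668-4042165 for *Gstp2*).
Gstp1: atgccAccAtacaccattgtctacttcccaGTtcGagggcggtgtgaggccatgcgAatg
Gstp2: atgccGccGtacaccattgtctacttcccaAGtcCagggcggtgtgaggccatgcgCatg

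Neutrophil granule genes were lower in the knockout, as values that did not pass the threshold. Many of these genes encode antimicrobial proteins that developing neutrophils make in the bone marrow. The list also holds matrix metalloproteinase genes (*Mmp8* and *Mmp9*) and receptor genes (*Csf3r* and *Cxcr2*). Of 14 listed, 10 were tested, 9 of which had differences below 0, with a median of -0.69, against 0.01 for all genes tested, and 5 had an unadjusted p under 0.05, all lower (1.97% of all genes were lower by that rule). The summed level of the list was 260.6, 193.2 and 183.0 CPM in the wild type mice and 142.7, 85.9 and 149.3 CPM in the knockout mice, with no overlap. With each mouse left out in turn the median was between -0.82 and -0.43, and without wild type mouse 1 it was -0.60. In bulk samples, fewer cells of a type and less RNA per cell cannot be told apart. *Retnlg*, a gene of mature neutrophils, had 0 counts in all libraries, and *Cxcr2* and *Elane* had at most 3 counts in any library.

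*Ngp*, which encodes neutrophilic granule protein, was at 50.4, 38.7 and 31.2 CPM in the wild type mice and at 17.6, 13.8 and 27.7 CPM in the knockout mice (-1.04 ± 0.23 on the log2 scale, adjusted p = 0.952). *Ltf*, lactoferrin, was at 28.8, 24.4 and 18.1 CPM in wild type and 12.03, 10.28 and 15.19 CPM in knockout mice (-0.90 ± 0.20). *S100a8*, a subunit of calprotectin, was at 31.1, 20.1 and 21.7 CPM in wild type and 6.87, 5.24 and 18.7 CPM in knockout mice (-1.38 ± 0.33). Knockout mouse 3 was the highest of its genotype for all 3 genes, and it came closest to the wild type mice. *Camp*, cathelicidin, had a difference of -0.85 ± 0.24 and *S100a9*, the partner of *S100a8*, of -0.92 ± 0.35, with overlap for *S100a9*. *Lcn2* (-0.53), *Mmp8* (-0.26), *Mpo* (-0.30), *Prtn3* (-0.19) and *Csf3r* (0.00) did not reach an unadjusted p of 0.05.

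These differences were smaller in control medium than with either LDL. The difference of *Ngp* was -0.04 in control medium, -1.85 under Ac-LDL and -1.22 under Ox-LDL, that of *Ltf* was -0.34, -1.39 and -0.98, and that of *S100a8* was -0.82, -2.01 and -1.32. In control medium, knockout mouse 3 had the highest *Ngp* level of the 6 mice (48.3 CPM). The variation between media did not pass the threshold for *Ngp* (edgeR quasi-likelihood test, adjusted p = 0.103) or for *Ltf* and *S100a8* (adjusted p = 1 for each). With the control libraries left out, *Ngp* was lower past the threshold (-1.54, limma adjusted p = 0.0480).

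**Figure D4:**
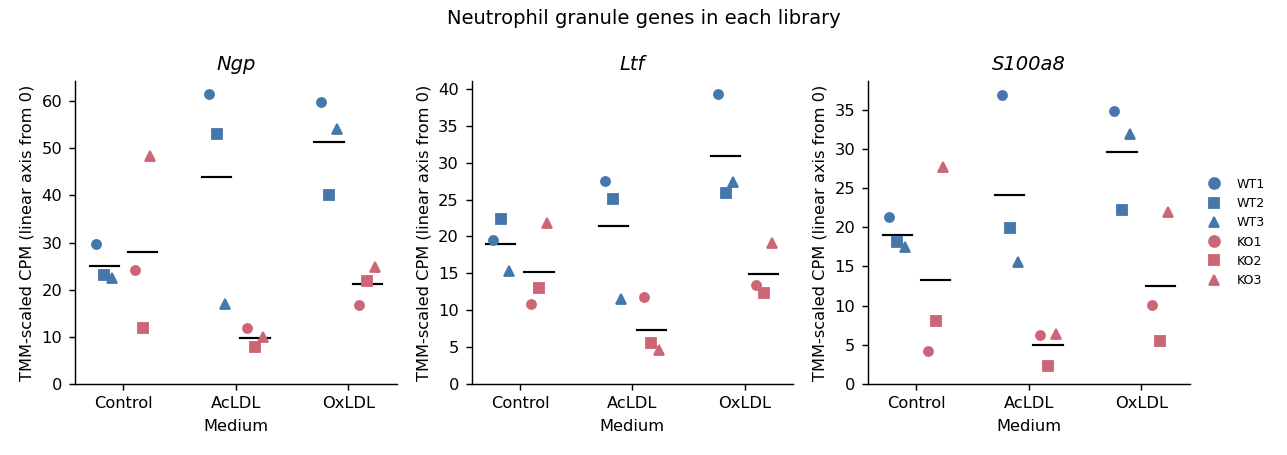
TMM-scaled CPM of *Ngp*, *Ltf* and *S100a8* in each library (vertical axes linear from 0), by medium, with wild type mice in blue, knockout mice in red and a line at the mean of 3 mice. With Ac-LDL and Ox-LDL the knockout means lie below the wild type means for all 3 genes, and in control medium knockout mouse 3 is the highest library of each panel except for *Ltf*, where wild type mouse 2 is.

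Of genes for amino acid transport, the partner of *Slc7a7* and 5 related carriers had differences of at most 0.15 in size, with intervals that bound them. *Slc3a2*, the heavy chain partner, was at 7.85, 7.68 and 7.78 log2 CPM in wild type and 7.83, 7.57 and 7.63 log2 CPM in knockout mice, a difference of -0.09 (95% interval -0.33 to 0.14). *Slc7a6*, the other y+L light chain, differed by 0.10 (-0.35 to 0.54), and *Slc7a8*, the LAT2 light chain for neutral amino acids, by 0.03 (-0.24 to 0.30). The sodium-dependent glutamine carriers *Slc1a5*, *Slc38a1* and *Slc38a2* differed by 0.07 (-0.26 to 0.40), 0.05 (-0.19 to 0.28) and 0.15 (-0.08 to 0.39). The mice of the genotypes overlapped for all 6 of these genes.

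Of 13 tested genes for cationic amino acid transport and arginine use, 8 were above 0 (median 0.10), and none had an unadjusted p under 0.05. *Slc7a1*, the CAT1 carrier that takes up arginine, had the smallest p (0.47 ± 0.22), ahead of the mitochondrial arginase gene *Arg2* (0.36), which had only 1 to 7 counts per mouse over 3 libraries. Of 17 genes for neutral amino acid transport and glutamine metabolism, 10 were above 0 (median 0.03), and *Slc38a7*, a lysosomal glutamine carrier, had the smallest p (-0.25 ± 0.12). Targets of ATF4, the transcription factor that responds to amino acid shortage, had a median of -0.02 over 22 genes, with *Aars*, an aminoacyl-tRNA synthetase gene, at 0.19 and *Vldlr*, a lipoprotein receptor gene with 0 to 11 counts per mouse, at -0.49. Genes of mTORC1 amino acid sensing and the TFEB family had a median of -0.05 over 26 genes. In that list *Rptor*, the mTORC1 scaffold subunit, was at 6.61, 6.99 and 6.63 log2 CPM in wild type and 7.02, 7.14 and 7.08 log2 CPM in knockout mice (0.34 ± 0.12, adjusted p = 0.952). *Rragc*, a Rag GTPase of the same pathway, differed by -0.19 ± 0.11.

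Of the 12 lipid-associated macrophage (LAM) markers, 9 were below 0 and 3 above, with a median of -0.07 and none past the threshold. The median of the LAM markers was 6.6e-05 in control medium, -0.12 under Ac-LDL and -0.12 under Ox-LDL. *Trem2*, the lipid-sensing receptor that marks these cells, was at 401, 414 and 457 CPM in wild type and 405, 446 and 444 CPM in knockout mice. The genotypes overlapped, and the log2 difference was 0.03 (95% interval -0.20 to 0.26). *Lpl*, lipoprotein lipase, was at 1094, 3033 and 1305 CPM in wild type and 2054, 3771 and 3373 CPM in knockout mice (0.88 ± 0.35 on the log2 scale). *Mmp12*, the macrophage elastase, had a difference of 0.71 ± 0.26, and *Fabp5*, a fatty acid carrier, of -0.51 ± 0.23. All 3 had an unadjusted p under 0.05, as did 539 of the 12290 genes tested, and overlapped between the genotypes.

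Resident macrophage markers had a median of -0.07 over 8 tested genes. *Folr2*, folate receptor beta, was at 32.7, 55.9 and 29.3 CPM in wild type and 41.1, 98.1 and 78.8 CPM in knockout mice. Knockout mouse 1 lay below wild type mouse 2, while the log2 difference was 0.83 ± 0.29 (adjusted p = 0.952) and was alike in control medium, Ac-LDL and Ox-LDL (0.87, 0.79 and 0.83). *Gas6*, a bridging molecule for dying cells, differed by -0.40 ± 0.14.

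For lipid handling, LXR targets had a median of 0.005 over 14 genes, with *Apoe*, apolipoprotein E, at 9.73, 9.91 and 10.18 log2 CPM in wild type and 9.41, 8.92 and 9.77 log2 CPM in knockout mice (-0.57 ± 0.20). Knockout mouse 3 overlapped the wild type range. Lipid droplet and PPAR genes had a median of -0.04 over 17 genes, with *Ppard* at -0.53 ± 0.18 and *Pparg* at 0.47 ± 0.18, which encode nuclear receptors for fatty acids. Sterol metabolism genes had a median of 0.06 over 24 genes, with *Srebf2*, their main transcription factor, at 0.30 ± 0.11 and the synthesis enzyme gene *Msmo1* at 0.19 ± 0.10. That list was not alike in the media, with medians of -0.12 in control medium, 0.36 under Ac-LDL and -0.14 under Ox-LDL. For *Srebf2* the differences were 0.06, 0.66 and 0.18 and for *Msmo1* -0.07, 0.52 and 0.12, in the same order. Scavenger receptors had a median of 0.04 over 11 genes, with *Scarb1* at 0.20 ± 0.10 and *Cd36* at 0.28 ± 0.16.

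Of lysosomal genes, 23 of 26 were below 0 with a median of -0.10, and *Ctsk*, a collagen-degrading protease, had the smallest p (-0.68 ± 0.25), ahead of *Hexa* (-0.17). The genotypes overlapped on this list. Wild type mouse 2 was at -0.09 relative to the wild type mean of each gene, below knockout mouse 1 at -0.04. An unadjusted p under 0.05 was reached by 1 of the 26 genes, and by 539 of all 12290. Glutathione S-transferases were below 0 for 14 of 15 genes, with a median of -0.37, which was -0.20 without wild type mouse 1. At an unadjusted p under 0.05, 4 of them were lower (*Gstp1*, *Mgst1*, *Mgst2* and *Gsto1*) and *Gstp2* was higher, where 1.97% of all genes were lower and 2.42% higher by that rule. *Gstp1* and *Gstp2* are counted singly here, and their sum had a difference of -0.15. *Mgst1*, a microsomal member, was at 6.61, 6.04 and 6.94 log2 CPM in wild type and 6.15, 5.94 and 6.06 in knockout mice (-0.48 ± 0.19), with wild type mouse 2 within the knockout range. NRF2 targets had a median of -0.05 over 19 genes, and *Srxn1*, a sulfiredoxin, differed by 0.32 ± 0.12.

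Interferon-stimulated genes were above 0 for 23 of 26 genes with a median of 0.29, but the wild type mice alone spanned more than that. Their median levels relative to the wild type mean of each gene were -0.99, 0.92 and -0.05 in wild type and -0.02, 0.47 and 0.45 in knockout mice. Without wild type mouse 1 the median difference was -0.16. *Ifi35* differed by 0.54 ± 0.20 and *Oas2*, a sensor of double-stranded RNA, by 0.90 ± 0.49. Cell cycle genes were above 0 for 22 of 26 genes (median 0.18), with *Cenpf*, a kinetochore gene, at 0.34 ± 0.12 and *Ccnb2*, a mitotic cyclin, at -0.33 ± 0.16. Wild type mouse 1 had the highest level of the cell cycle list and wild type mouse 3 the lowest, so the wild type mice enclosed all knockout mice. The median of that list was between -0.02 and 0.33 with each mouse left out in turn, the highest without wild type mouse 1.

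**Figure D5:**
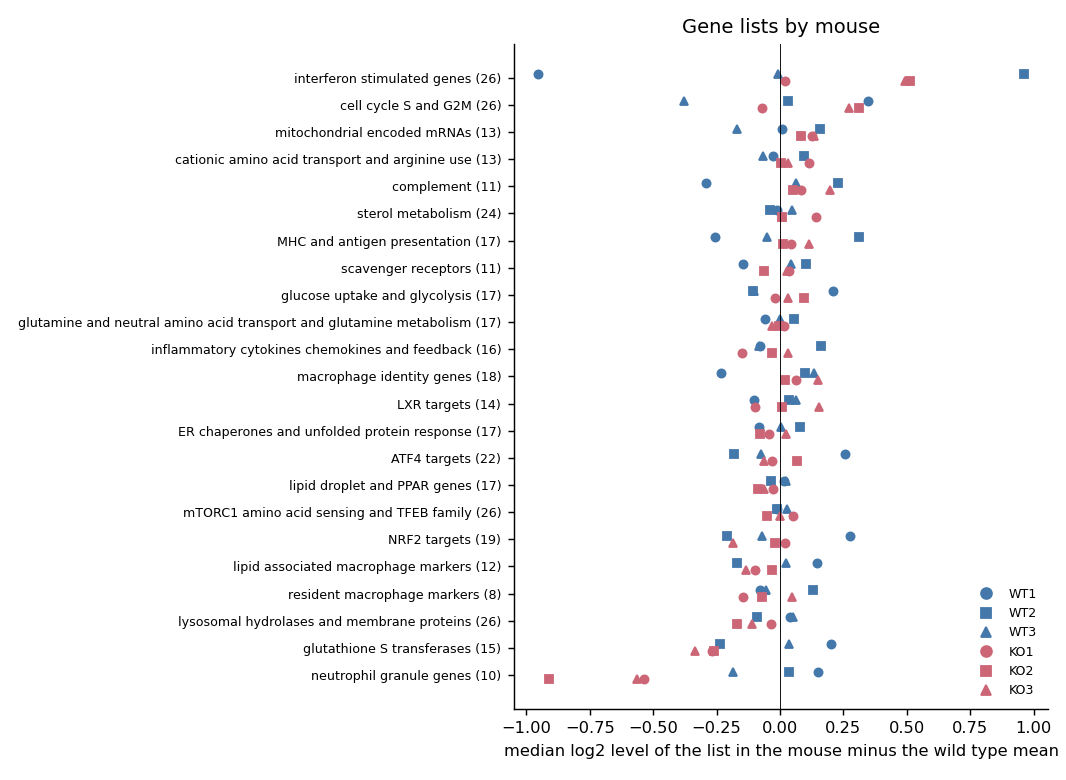
Median over the genes of each list of the log2 level in each mouse, drawn relative to the mean of the wild type mice (horizontal axis), with the number of genes tested in brackets, wild type mice in blue and knockout mice in red. The knockout mice lie below the wild type mice without overlap for neutrophil granule genes and, by a small margin, for glutathione S-transferases, and the wild type mice spread most for interferon-stimulated genes.

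Antigen presentation genes had a median of 0.05 over 17 genes (*H2-DMa* -0.47, *H2-Eb1* 0.62), complement genes 0.09 over 11 (*C5ar1* 0.26, *C3* 0.47), and inflammatory cytokines, chemokines and their feedback genes 0.02 over 16 (*Il10* 0.67, *Ccl2* -0.39). Endoplasmic reticulum chaperones and the unfolded protein response had a median of -0.0018 over 17 genes, which was above 0 with library size alone (*Herpud1* -0.35, *Manf* -0.19). Genes of glycolysis had 0.03 over 17, with *Hk2*, a hexokinase, at -0.36 ± 0.13 and *Pfkp*, a phosphofructokinase, at 0.30 ± 0.14. Both were free of overlap between the genotypes, as were 1202 of all 12290 genes, but only by narrow margins. For *Hk2* the lowest wild type mouse was at 5.90 and the highest knockout mouse at 5.89 log2 CPM. For *Pfkp* the highest wild type mouse was at 6.81 and the lowest knockout mouse at 6.82 log2 CPM. Mitochondrially encoded mRNAs were above 0 for 12 of 13 genes, with a median of 0.12 (*mt-Nd5* 0.18, *mt-Atp8* 0.14). Their median levels relative to the wild type mean of each gene were 0.0024, 0.15 and -0.18 in wild type mice. In knockout mice they were 0.12, 0.08 and 0.13, so the wild type mice enclosed all knockout mice. The median difference of that list was between 0.01 and 0.21 with each mouse left out in turn. Macrophage identity genes had 0.02 over 18 genes, 9 above and 9 below 0. *Lyz1* was the highest, and *Fcgr3*, an activating Fc receptor, was at -0.46 ± 0.17. *Lyz2*, with a log2 difference of -1.10, is not on that list.

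The genotype difference varied between media past the threshold for 5 genes (0.0407% of genes tested, edgeR quasi-likelihood test with the mouse as a block). Among them were *Gstp1* and *Hist1h2ah*, whose mean differences are given above, and the predicted genes *Gm37988* and *Gm32687*. These are differences of single media, and *Hist1h2ah* and *Gstp1* had 1 direction in all 3 media, while *Gm37988* and *Gm32687* did not.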

How the data were processed

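RNA-Seq of BM-derived macrophages was analysed in 18 libraries from 6 mice, 3 per genotype. Reads were trimmed with Trim Galore in the nf-core pipeline, aligned to mm10 (GRCm38) with STAR and quantified with Salmon on the transcriptome of Ensembl release 93. Neither tool versions nor a strand setting for the counts are given in the sources used here. The values deposited by the authors are estimated counts per gene, not normalized. They were rounded, and 12290 genes passed filterByExpr (minimum count 2, minimum total 10). TMM scaling and log2 CPM with a prior count of 2 were computed with edgeR 4.0.16 in R 4.3.3. The 3 libraries of a mouse were averaged, and genotypes were compared with limma 3.58.1 (trend), with Benjamini-Hochberg adjustment over all genes and a threshold of 0.05. Variation between media was tested with edgeR's quasi-likelihood fit with a term for each mouse and medium. DESeq2 1.42.0 was an alternative. The fits were tested on simulated data. Libraries of the same mouse deviated together (correlation of deviations 0.055 to 0.29, over 0.1 in 14 of 18 pairs). Counts measure reads, not molecules, so counting limits cover counting error only. The marrow of a mouse was grown on 3 plates and re-seeded before treatment. How plates map to libraries is not given in the sources used here, so plate effects cannot be told apart. The p-values of the genotype difference on 6 mouse values measure the spread between mice. In limma, this spread is drawn towards that of genes at a similar level, which has more weight (6.92 against 4 degrees of freedom). The p-values of the variation between media measure the spread between libraries within mice.

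The members and gene lists were chosen with earlier results of these data known. Named genes were 11 fixed genes, the 12 with the largest change in each direction past the threshold, filled up by the smallest p, at a mean of at least 5 CPM with no overlap of mice and 1 direction in all media, and the 2 smallest p of each list. Lists are given as counts and medians without a test. Positions are from GENCODE vM21, in which 12274 of the 12290 genes were found by identifier, and the sequences from its transcripts. There were 0 columns of other samples. Of the 5 genes whose difference varied between media, 1 is not reported here.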

Additional observations from a re-analysis of the deposited data

Results flagged for a closer look

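The genotype difference of 5 genes varied between the media by a test of that variation itself, with the mouse as a block (edgeR quasi-likelihood test, Benjamini-Hochberg adjustment). *Gm37988* had differences of 1.2 in control medium, 1.86 under Ac-LDL and -2.93 under Ox-LDL (adjusted p = 0.0227). It shares its strand and position with *Lypla1* and *Tcea1*, whose reads cannot be told apart from its own. In the same order of media, *Hist1h2ah* had -0.30, -4.02 and -3.05 (adjusted p = 0.0232). *Gm32687* had -2.86, 1.08 and 0.67 (adjusted p = 0.0449). *Gstp1* had -2.82, -0.53 and -0.17 (adjusted p = 0.0449). Without a term for the mouse, 0 genes passed in the same test (249 at an unadjusted p under 0.05, against 451 with it).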

How the results depend on the processing

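The values of 33 named genes were recomputed under 24 alternatives, and 763 of 792 values kept their direction and their side of the threshold. Of these genes only *Slc7a7* had passed, and it stayed past the threshold in 16 of the 24 alternatives. For the other genes, keeping their side meant staying short of the threshold. The number of genes past the threshold was 1 (0 higher, 1 lower). It was also 1 with edgeR on counts summed per mouse, with library size alone, DESeq2 size factors, *Gm26917* left out, the default filter, no filter, other prior counts or a robust trend.

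It was 5 with DESeq2 on summed counts (1 higher, *Gstp2*, and 4 lower, *Slc7a7*, *Lyz2*, *Gm10800* and *Gm16867*). Of these, *Gm16867* had 0 counts in wild type mouse 2. The number was 7 with 18 libraries taken as independent (1 higher, 6 lower). With the mouse as replicate block it was 2, both lower. With the replicate number as a block across genotypes it was 2, both lower (*Slc7a7* and *Hist1h2ah*). Same-numbered mice of the genotypes did not deviate together (correlations -0.036 to 0.041), so those numbers are not a pairing. It was 0 without the trend (*Slc7a7* -1.67, adjusted p = 0.0502) and 0 with a term for mice with *Xist* counts, chosen after seeing the data (*Slc7a7* -1.67, adjusted p = 0.0817). Without Control libraries it was 3, all lower. It was 0 without AcLDL libraries (*Slc7a7* -1.22) and 0 without OxLDL libraries (*Slc7a7* -1.82, adjusted p = 0.0847). With 1 mouse left out it was between 0 and 4 (higher 0 to 2, lower 0 to 3), and *Slc7a7* was between -1.74 and -1.57. Genes without overlap in 1 direction numbered between 1297 and 2581 with fewer mice, against 917. The variation between media gave 5 genes, and 0 with no replicate block.

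Directions turned for 5 genes with differences close to 0. With 1 mouse left out, *Trem2* was between -0.013 and 0.087, *Slc7a8* between -0.10 and 0.10, *Slc38a1* between -0.047 and 0.10, *Slc7a6* between -0.075 and 0.25 and *Slc1a5* between -0.032 and 0.16. Without Control libraries, *Trem2* was at -0.020 and *Slc1a5* at -0.011. The median turned sign with some mouse left out for 17 of 23 gene lists, without wild type mouse 1 among others for ATF4 targets (0.083), NRF2 targets (0.099), complement (-0.019) and antigen presentation (-0.062). Apart from changes by construction (fewer mice or libraries), the cause was not tested. Depth limited genes under 5 CPM, where the median 95% interval extended 0.58 to either side.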
